A study of Mus musculus with 7 samples.

Results

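The Bcl2 family of survival and death genes was examined in microglia sorted from inside neuronal grafts and from cortex outside them. The set comprised 10 genes of the 55341 gene names in the deposited count table, taken by name. They were Bcl2, Bcl2l1, Mcl1, Bcl2a1a, Bcl2a1b, Bcl2a1d, Bax, Bak1, Bcl2l11 and Pmaip1. WT embryonic cortical neurons had been injected into the cortex of 5xFAD mice, which express human APP and PS1 with familial Alzheimer's disease mutations from the neuronal Thy1 promoter, and CD11b+CD45low cells were sorted 4 weeks later. The inside graft group held 3 RNA-seq libraries from dissected grafts and the outside graft group 4 libraries from small pieces of cortex near the graft. All 7 libraries carry the labels 5xFAD, C57BL/6, primary microglia and an age of 14 weeks, so the host genotype is the same in both groups and there was no group without the transgenes. Per its methods the study used female mice. No cortex without a graft was included, and the labels do not name the mouse behind each library or say whether animals were pooled, so P values here measure the spread between these libraries, which may be technical.

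Cells die by the mitochondrial route of apoptosis when the effectors BAX and BAK1 open pores in the outer mitochondrial membrane. Anti-apoptotic relatives (BCL2, BCL-XL from Bcl2l1, MCL1 and the A1 proteins from the Bcl2a1 genes) hold the effectors and the BH3-only proteins in check. BH3-only proteins such as BIM from Bcl2l11 and NOXA from Pmaip1 carry stress signals, and NOXA binds mainly MCL1 and A1. Microglia depend on survival signals through CSF1R, and the balance of this family is set to a large extent by protein binding and turnover, which RNA levels do not measure.

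None of the 10 genes differed between the compartments beyond the spread of the libraries once P values were adjusted over all genes tested. Mcl1, the survival gene with the most counted reads, differed by little. It had 331 ± 21.4 CPM (CPM, counts relative to the scaled library total, SD, n = 3) within the graft and 342 ± 24.9 CPM (SD, n = 4) in outside tissue. Bcl2a1d was the gene with the widest difference, at 5.43 ± 2.08 and 2.22 ± 0.877 CPM, and the only one without overlap between the inside and the outside libraries. Pmaip1 came next, at 17.3 ± 5.41 and 10.4 ± 4.18 CPM. The means of Bcl2l11 differed the other way, at 52.4 ± 12.1 CPM inside and 62.1 ± 1.95 CPM outside.

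All 10 genes passed the filter on low counts and were tested among 15257 genes with edgeR's quasi-likelihood test and with limma's voomWithQualityWeights, the test of the study. In edgeR 0 of the 10 had an adjusted P below 0.01, the threshold of the study, which 0% of all genes passed, and 0 had one below 0.05, which 0.0983% passed. In voomWithQualityWeights 0 passed 0.01 and 0 passed 0.05, against 0.0197% and 0.492% of all genes, and DESeq2 called 0 at 0.01 and 0 at 0.05, against 1.7% and 2.92%. The smallest adjusted P values among the 10 were 0.374 in edgeR, for Bcl2a1d, and 0.193 in voomWithQualityWeights, for Pmaip1. At an unadjusted P below 0.05, edgeR gave 1 of the 10 (Bcl2a1d, higher inside), where 9.55% of all genes passed, 5.76% higher and 3.79% lower inside. In voomWithQualityWeights 2 passed (Bcl2a1d and Pmaip1, both higher inside), where 12.2% of all genes did, 7.47% higher and 4.71% lower. The groups did not overlap for 1 of the 10 genes, higher inside, against 10.7% of all genes, 5.65% higher and 5.02% lower. These shares lie near those of all genes. The fold change was above 1 for 8 genes and below 1 for 2, where 49.2% of all genes were above 1, with a median log2 fold change (inside relative to outside) of 0.24 over the 10 and of -0.0064 over all genes tested.

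**Figure D1:**
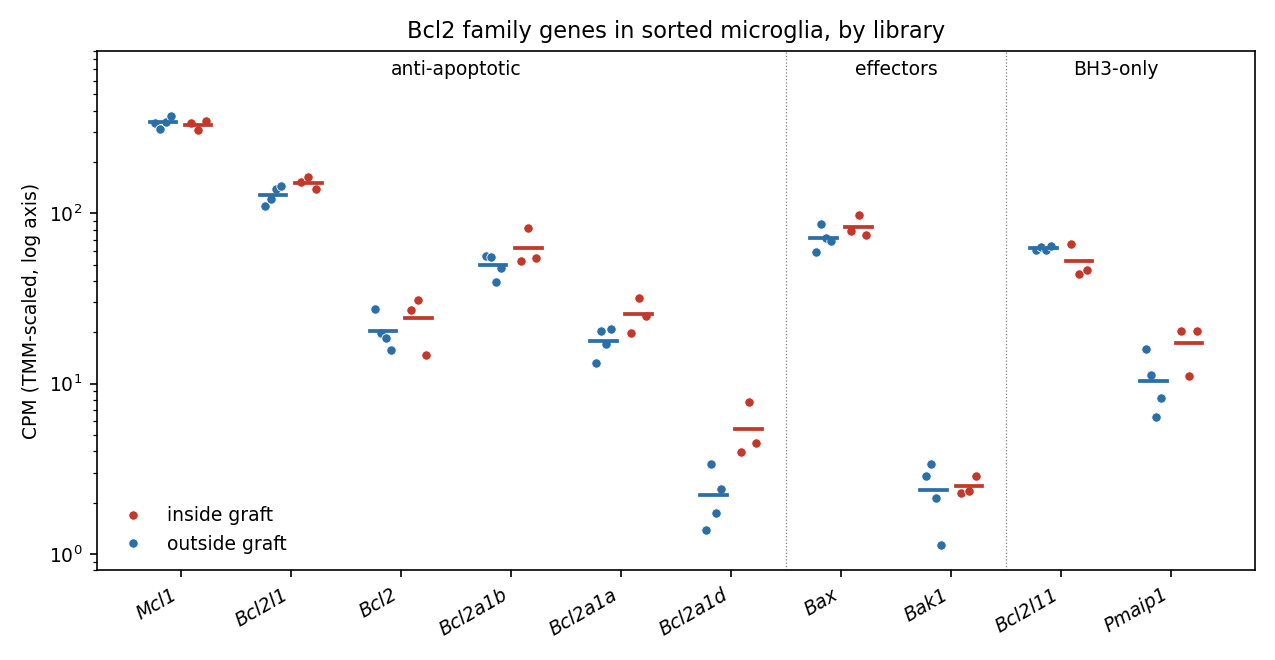
Level of each of the 10 genes in CPM (log axis) in the 3 inside graft libraries (red) and the 4 outside graft libraries (blue), with a short line at each group mean. Only for Bcl2a1d do all red points lie above all blue points, from 3.96 to 7.81 CPM against 1.39 to 3.38 CPM.

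In the same libraries the microglia genes Cx3cr1, P2ry12 and Tmem119 were abundant, and the 12 microglia markers summed to between 53004 and 61709 CPM inside and between 61721 and 68730 CPM outside the graft. All 12 microglia markers had a fold change below 1 in edgeR, and 0 had an adjusted P below 0.05. At an unadjusted P below 0.05 edgeR gave 7 of them, where 3.79% of all genes passed lower inside. For 5 of the 12 all inside libraries lay below all outside libraries, against 5.02% of all genes. Markers of some other cells also moved with the groups. The 8 neutrophil markers summed to 6488, 648.5 and 13630 CPM in inside graft 1, 2 and 3, against at most 297 CPM outside. Nearly all of this sum came from S100a8, S100a9, Ngp and Camp. Of the 7 neutrophil markers tested, all had a fold change above 1, and 5 were higher in every inside library. Retnlg overlapped between the groups, and Retnlg and Cxcr2 were at 0 in inside graft 2. Mmp8, which was not tested, was highest in outside graft 3, at 6.72 CPM. The 8 monocyte markers summed to between 82.1 and 1370 CPM inside, against at most 32.6 CPM outside. The 8 markers of border-associated macrophages summed to between 16.9 and 121 against at most 17.9 CPM. The 8 proliferation genes summed to between 90.3 and 161 against at most 39.1 CPM. Among the lymphocyte markers Cd3d, Trbc2 and Ms4a1 were at 0 in all libraries, and the list summed to between 30.5 and 51.4 CPM inside and between 33.9 and 37.9 CPM outside, mostly from Cd79b. The monocyte sum came mostly from Chil3 (587, 67.6 and 1189 CPM in inside graft 1, 2 and 3), and the defining monocyte gene Ccr2 had 4.26 CPM in inside graft 2, within its outside range of 4.06 to 18.1 CPM. Neuronal markers summed to at most 10.9 CPM in any library. The 6 astrocyte markers, with Gja1 at 0 throughout, summed to between 249 and 299 CPM inside and between 327 and 351 CPM outside. Nearly all of this sum came from Slc1a3, with means of 268 CPM inside and 338 CPM outside. Of the 5 astrocyte markers tested, 3 (Gfap, Aldh1l1 and Aldoc) had a fold change above 1 and 2 (Slc1a3 and Aqp4) below. The 6 oligodendrocyte markers summed to between 155 and 165 CPM in all libraries. The part of these cells in the differences below was not tested, and in such bulk samples fewer cells of a type and less RNA per cell cannot be told apart.

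Among the survival genes, Mcl1 (GRCm38 chromosome 3, 95658788 to 95663176, plus strand) encodes a short-lived protein. It had 338, 307 and 347 CPM in inside graft 1, 2 and 3 and 341, 311, 343 and 372 CPM in outside graft 1 to 4. The inside values lay among the outside values apart from inside graft 2, the lowest of all, and the spread within each group was wider than the gap between the means. The log2 fold change was -0.047 (standard error 0.11, 95% interval -0.28 to 0.19, adjusted P = 0.947) in edgeR, and it was 0.0048 without inside graft 2.

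Bcl2l1 (chromosome 2, 152780668 to 152831728, minus strand) encodes BCL-XL and also a short pro-apoptotic splice form, and the counts hold both. It had 152, 163 and 138 CPM inside and 110, 121, 140 and 144 CPM outside the graft. Inside graft 1 and 2 lay above all outside libraries, and inside graft 3 lay among them. For Bcl2l1 the log2 fold change was 0.23 (standard error 0.13, interval -0.054 to 0.52, adjusted P = 0.634) in edgeR and 0.17 (standard error 0.12, adjusted P = 0.637) in voomWithQualityWeights.

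Bcl2 (chromosome 1, 106538178 to 106714274, minus strand), the founding member of the family, was low in these cells. It had 27.0, 31.1 and 14.7 CPM inside and 27.5, 19.8, 18.4 and 15.8 CPM outside the graft. Inside graft 3 held the lowest value of all 7 libraries and inside graft 2 the highest. The log2 fold change was 0.25 (standard error 0.28, interval -0.38 to 0.88, adjusted P = 0.862) in edgeR, and it was 0.51 with inside graft 3 left out and 0.036 with inside graft 2 left out.

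The Bcl2a1 genes are mouse copies of a single human gene for A1, a short-lived survival protein of leukocytes whose transcription responds to NF-kappaB. They lie on chromosome 9 of GRCm38, Bcl2a1d from 88723285 to 88731914 on the minus strand, Bcl2a1a from 88956900 to 88962419 and Bcl2a1b from 89199209 to 89207827, both on the plus strand. Their sequences decide which reads could be counted, because a read that aligned to several places was left out. Each has a coding sequence of 519 bases including the stop codon, and the 3 copies differ from one another at 12 positions. Bcl2a1a and Bcl2a1b share 97.9% of bases, Bcl2a1a and Bcl2a1d 98.7%, and Bcl2a1b and Bcl2a1d 98.8%. The first 150 bases hold 7 of the 12 positions and are printed here from GENCODE M21 transcripts on GRCm38, 5′ to 3′ from the ATG, with the variable positions in capitals. They show how little separates a Bcl2a1d read from its relatives.
Bcl2a1a, chr9:88957051-88957200, plus strand: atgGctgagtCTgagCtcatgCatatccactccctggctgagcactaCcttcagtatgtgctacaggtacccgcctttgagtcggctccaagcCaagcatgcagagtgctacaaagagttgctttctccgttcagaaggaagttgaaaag
Bcl2a1b, chr9:89199360-89199509, plus strand: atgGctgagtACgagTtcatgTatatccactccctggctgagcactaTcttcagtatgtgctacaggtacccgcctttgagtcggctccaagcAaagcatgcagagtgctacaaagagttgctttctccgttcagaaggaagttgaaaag
Bcl2a1d, chr9:88731570-88731719, minus strand: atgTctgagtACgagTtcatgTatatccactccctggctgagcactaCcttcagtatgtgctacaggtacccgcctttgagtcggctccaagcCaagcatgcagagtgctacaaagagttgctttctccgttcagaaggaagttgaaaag

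In the whole coding sequence Bcl2a1a has a base of its own at 6 positions, Bcl2a1b at 5 and Bcl2a1d at 1. That single position is the first base of the second codon, G4T of Bcl2a1d against Bcl2a1b, counted from 1 at the A of the ATG. A read can also be told apart by a combination of bases, so windows of 75 bases, the cycle number of the sequencing kit, were taken along each annotated transcript and looked up in all GENCODE M21 transcripts. Of these windows 44.8% were found in no other gene for Bcl2a1a, 31.6% for Bcl2a1b and 32.4% for Bcl2a1d, against 87.2% to 100% for the other 7 members. For Bcl2a1d 67.6% of the windows also stand in a gene at another place, and its 256 unique windows lie in or touching the coding sequence (212) or before it (44), with 0 after it. Bcl2a1b shares windows in addition with Gm29094, an annotated gene over the same exons, which itself received between 1 and 16 counts per library. These shares come from exact matches to transcripts and not from an alignment to the genome, which was not used here. The annotated Bcl2a1d transcript starts further ahead of its coding sequence than those of the other 2 copies, and bases before their annotated starts were not searched. Its windows before the coding sequence may therefore also stand elsewhere in the genome, and 32.4% may be too high.

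Bcl2a1d had 3.96, 7.81 and 4.51 CPM inside and 1.39, 3.38, 1.73 and 2.39 CPM outside the graft, from 101, 176 and 107 counts and from 26, 76, 43 and 59 counts. All inside libraries were higher than all outside libraries, and the lowest inside value stood close above the highest outside value. The log2 fold change was 1.28 (standard error 0.46, interval 0.25 to 2.32, unadjusted P = 0.0198, adjusted P = 0.374) in edgeR and 1.22 (standard error 0.40, unadjusted P = 0.0113, adjusted P = 0.233) in voomWithQualityWeights. Without inside graft 2, the library with the highest value, it was 0.93, with an unadjusted P of 0.115 in edgeR. Inside graft 2 had the smallest neutrophil, monocyte, border-associated macrophage and proliferation sums of the inside libraries. All of these sums but that of border-associated macrophages were still above those of every outside library. The part of these cells in the Bcl2a1d difference was not tested.

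Bcl2a1a had 19.7, 31.9 and 24.8 CPM inside and 13.2, 20.4, 17.1 and 20.8 CPM outside the graft. Inside graft 2 and 3 lay above all outside libraries, and inside graft 1 below the highest pair of them. Its log2 fold change was 0.51 (standard error 0.23, interval -0.012 to 1.03, adjusted P = 0.538) in edgeR, and it was 0.32 without inside graft 2.

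Bcl2a1b, the most abundant copy, had 52.2, 81.4 and 54.3 CPM inside and 56.2, 55.6, 39.7 and 47.8 CPM outside the graft. Only inside graft 2 lay above the outside libraries. Its log2 fold change was 0.33 (standard error 0.19, interval -0.10 to 0.76, adjusted P = 0.659) in edgeR, and it was 0.099 without inside graft 2.

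With the counts of the 3 copies summed before the fit, which removes the split of reads among them but not the loss of reads common to them, A1 transcripts had 76.0, 121 and 83.6 CPM inside and 70.8, 79.4, 58.5 and 71.0 CPM outside the graft. Inside graft 1 lay below outside graft 2, and the other inside libraries lay above all outside libraries. The log2 fold change of the sum was 0.42 (standard error 0.18, interval 0.024 to 0.82, unadjusted P = 0.0397, adjusted P = 0.483) in edgeR over 15255 genes and 0.42 (adjusted P = 0.359) in voomWithQualityWeights. Leaving out inside graft 2, a fit added after the data were seen, gave 0.19 in edgeR, with an unadjusted P of 0.249 and an adjusted P of 0.810. Within the sum, Bcl2a1b gave 67.0 ± 1.91% (SD, n = 3) of the counts inside and 71.1 ± 5.64% (SD, n = 4) outside, and Bcl2a1a 27.3 ± 2.00% and 25.7 ± 5.02%. Bcl2a1d gave 5.69 ± 0.666% and 3.14 ± 0.954%. Its share ran from 5.22% (exact 95% binomial interval 4.27 to 6.31%) to 6.45% (5.56 to 7.44%) inside and from 1.96% (1.28 to 2.86%) to 4.26% (3.37 to 5.30%) outside. The groups did not overlap in this share, while the interval of inside graft 1 overlapped those of outside graft 2 and 4 and the interval of inside graft 3 that of outside graft 2, and intervals cover counting error only. With each count divided by the number of unique windows of its gene, the shares of Bcl2a1d were 5.71 ± 0.660% and 3.13 ± 0.973%.

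**Figure D2:**
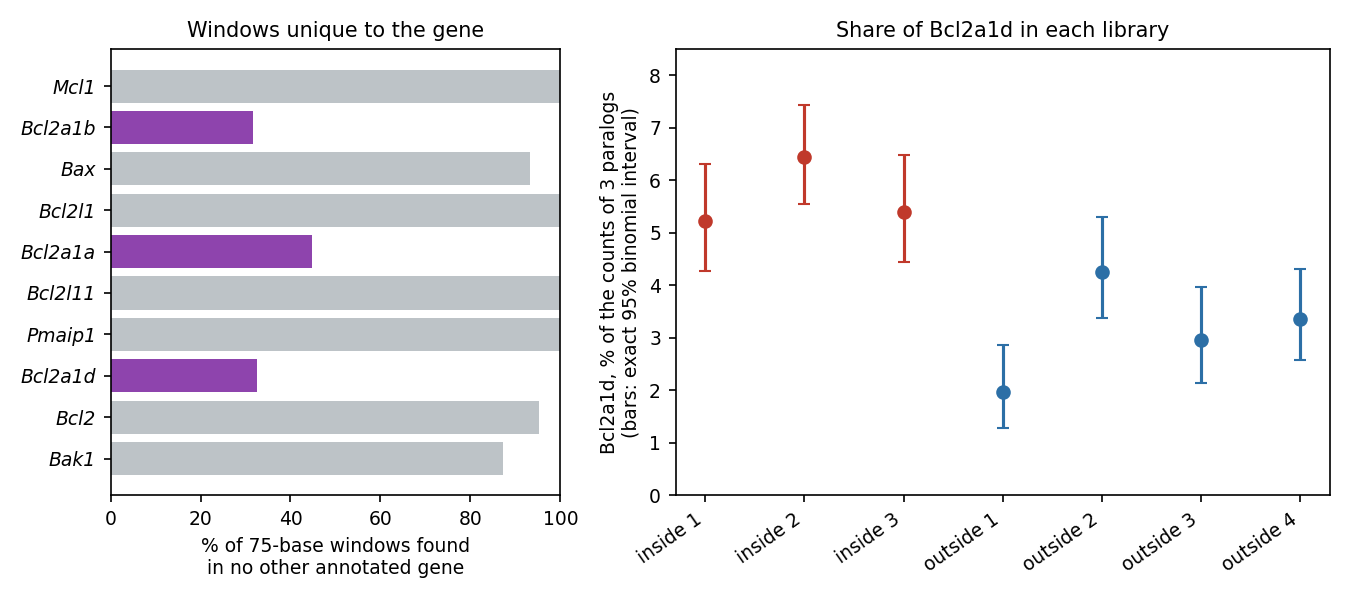
Left, the percentage of 75-base windows of each gene's annotated transcripts that occur in no other annotated gene, with the Bcl2a1 copies in purple. Right, counts of Bcl2a1d as a percentage of the counts of the 3 copies in each library (red inside, blue outside, bars the exact 95% binomial interval). The purple bars lie between 31.6% and 44.8%, and the red points between 5.22% and 6.45% stand above the blue points between 1.96% and 4.26%.

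RefSeq promoter windows on GRCm38.p6, which reach from before to shortly after the annotated start, were used for 9 of the 10 genes, not for Pmaip1. They were searched on both strands for GAGGAAGT, a binding core of the myeloid factor PU.1, and for the NF-kappaB site of the immunoglobulin kappa enhancer. GAGGAAGT stood in a window of Bcl2a1a, Bcl2a1b, Bcl2a1d and Bak1 and in 3.20% of all 32851 windows. The kappa enhancer site stood in no window of the 9 genes and in 0.155% of all windows. The stretches with the PU.1 core, in capitals, are given 5′ to 3′ on the strand of the gene because the 3 genes hold it in common. It ends 77 bases before the first transcribed base of GENCODE in Bcl2a1a and Bcl2a1b and 33 bases before it in Bcl2a1d. The annotated Bcl2a1d transcript starts further ahead of its coding sequence, which begins at base 196, against base 152 in Bcl2a1a and Bcl2a1b.
Bcl2a1a, chr9:88956756-88956843, plus strand: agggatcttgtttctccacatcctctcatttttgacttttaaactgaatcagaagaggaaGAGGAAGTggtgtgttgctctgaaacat
Bcl2a1b, chr9:89199065-89199152, plus strand: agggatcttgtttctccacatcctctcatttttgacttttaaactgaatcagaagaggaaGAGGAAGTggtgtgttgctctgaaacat
Bcl2a1d, chr9:88731927-88732014, minus strand: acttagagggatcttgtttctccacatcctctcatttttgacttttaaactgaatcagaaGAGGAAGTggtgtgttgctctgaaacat

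Of the effectors, Bax (chromosome 7, 45461697 to 45466898, minus strand) was the abundant one. It had 78.7, 97.1 and 74.9 CPM inside and 59.6, 86.9, 71.9 and 68.8 CPM outside the graft. Outside graft 2 lay above inside graft 1 and 3, so the groups overlapped. In edgeR its log2 fold change was 0.22 (standard error 0.16, interval -0.13 to 0.57, adjusted P = 0.747), and it was 0.097 without inside graft 2.

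Bak1 (chromosome 17, 27019810 to 27029009, minus strand) was close to the limit of measurement, with 28 to 76 counts per library. It had 2.28, 2.35 and 2.86 CPM inside and 2.88, 3.38, 2.13 and 1.13 CPM outside the graft, and all inside values lay within the range of the outside values. Its log2 fold change was 0.070 (standard error 0.51, interval -1.06 to 1.20, adjusted P = 0.987) in edgeR, an interval that reaches past a 2-fold change in either direction. It was 0.39 in voomWithQualityWeights and -0.16 without outside graft 4. Strand was not used in counting, and exons of Bak1 overlap exons of Ggnbp1 on the opposite strand, which had 54 to 163 counts per library.

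Among the BH3-only genes, Bcl2l11 (chromosome 2, 128126038 to 128162547, plus strand) had 66.3, 44.3 and 46.5 CPM inside and 60.5, 63.2, 60.5 and 64.3 CPM outside the graft. The outside libraries lay close together, inside graft 2 and 3 lay below all of them and inside graft 1 above all of them. Its log2 fold change was -0.25 (standard error 0.16, interval -0.61 to 0.11, adjusted P = 0.714) in edgeR. Without inside graft 1 it was -0.45, with an unadjusted P of 0.0128 and an adjusted P of 0.372, and without inside graft 2 it was -0.14.

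Pmaip1, a target of p53 and of stress pathways, had 20.5, 11.01 and 20.3 CPM inside and 15.96, 11.2, 6.36 and 8.22 CPM outside the graft. Inside graft 1 and 3 lay above all outside libraries, and inside graft 2 lay between the upper and the lower pair of them. The log2 fold change was 0.73 (standard error 0.35, interval -0.045 to 1.504, unadjusted P = 0.0624, adjusted P = 0.559) in edgeR and 1.01 (standard error 0.31, unadjusted P = 0.00753, adjusted P = 0.193) in voomWithQualityWeights, which gave outside graft 1, the highest of the outside libraries in Pmaip1 and the one with the fewest counts, a weight of 0.448. Without outside graft 1 the edgeR value was 1.01, with an unadjusted P of 0.0107 and an adjusted P of 0.277. Inside graft 1 and 3, the inside libraries with high Pmaip1, were also those with the larger neutrophil and monocyte sums. The outside libraries did not follow this order. Outside graft 1, with the highest Pmaip1 of them, had a neutrophil sum of 0.640 CPM and a monocyte sum of 6.94 CPM. Outside graft 3, with the lowest Pmaip1, had 297 and 25.9 CPM. The part of these cells in the Pmaip1 difference was not tested.

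**Figure D3:**
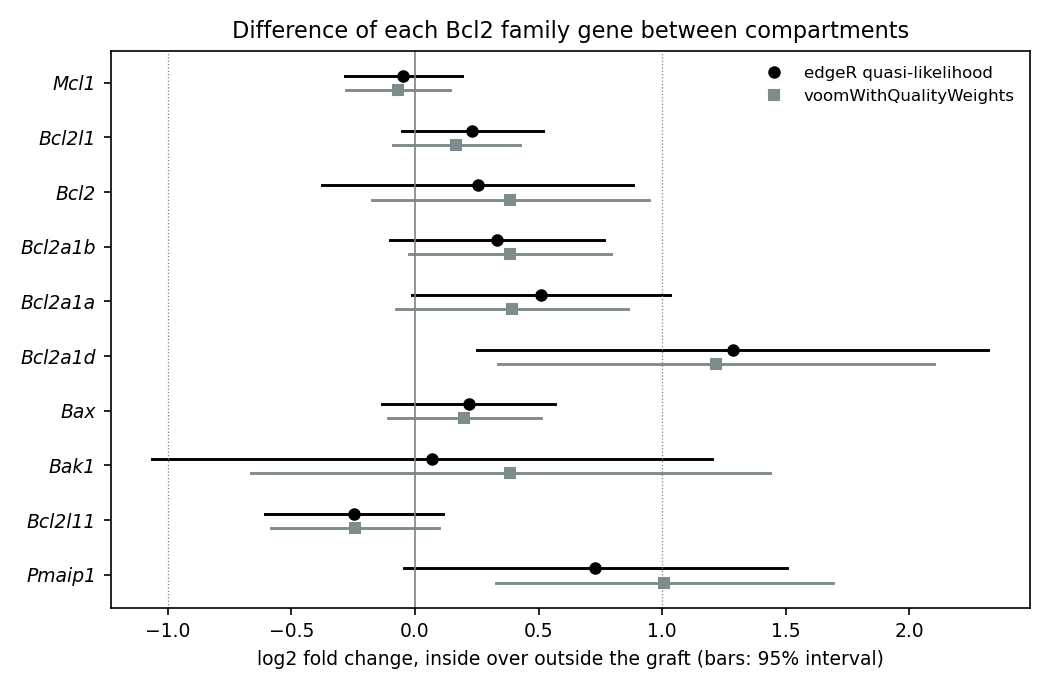
Log2 fold change, inside relative to outside, of each gene with its 95% interval, by edgeR (black circles) and voomWithQualityWeights (grey squares), dotted lines at -1 and 1. The edgeR interval lies wholly above 0 for Bcl2a1d (0.25 to 2.32) and crosses 0 for the other 9 genes.

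The edgeR interval lay wholly between -1 and 1 for 6 of the 10 genes (Bcl2, Bcl2l1, Mcl1, Bcl2a1b, Bax and Bcl2l11), against 55.1% of all genes tested. For Bcl2a1a, Bcl2a1d, Bak1 and Pmaip1 the interval reached past a 2-fold change at this depth and number of libraries.

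Levels of different genes were compared per length, as TPM, the counts divided by the exon length in the count table and scaled to the same total in each library. Over all 7 libraries the order of the mean levels was Mcl1 (303 ± 34.9 TPM, SD over 7 libraries), Bcl2a1b (205 ± 34.1), Bax (149 ± 18.5), Bcl2l1 (92.3 ± 11.6), Bcl2a1a (78.3 ± 18.3), Bcl2l11 (22.2 ± 4.20), Pmaip1 (14.9 ± 6.15), Bcl2a1d (12.4 ± 6.72), Bcl2 (7.30 ± 1.82) and Bak1 (3.08 ± 0.878). Each gene held the same rank by the mean inside and by the mean outside the graft. The ranges of neighbours over the libraries were separate between Bax and Bcl2l1, between Bcl2a1a and Bcl2l11 and between Bcl2 and Bak1. All other neighbours overlapped in range. Within libraries, Mcl1 was above Bcl2a1b in 6 of 7 and Bcl2a1b above Bax in 7 of 7, while Bcl2l1 was above Bcl2a1a in 5 of 7 and Bcl2a1d above Bcl2 in 5 of 7. The true levels of the Bcl2a1 copies relative to the other genes are higher than these values to the extent that shared reads were not counted. For Bcl2a1b 43.5% of the 75-base windows also stand in a gene at another place, so its true order against Mcl1 is not settled here. The length of 8029 bases used for Bcl2l11 joins the exons of 8 annotated transcripts.

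The TPM of Bax was 31.6 to 92.7 times that of Bak1 within a library. Anti-apoptotic genes made up 78.6 ± 1.07% (SD, n = 3) of the summed TPM of the 10 genes inside and 78.8 ± 2.13% (SD, n = 4) outside the graft, and Mcl1 alone between 25.7% and 38.5% in a library. The ratio of summed anti-apoptotic TPM to the summed TPM of effectors and BH3-only genes was 3.68 ± 0.229 inside and 3.75 ± 0.457 outside, a gap smaller than either SD. These shares and the ratio cover the 10 genes only. They leave out BH3-only genes such as Bid (81.9 TPM), Bmf (36.1 TPM) and Bad (28.2 TPM), and reads shared among the Bcl2a1 copies were not counted. The ratio is therefore not the balance of the whole family.

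**Figure D4:**
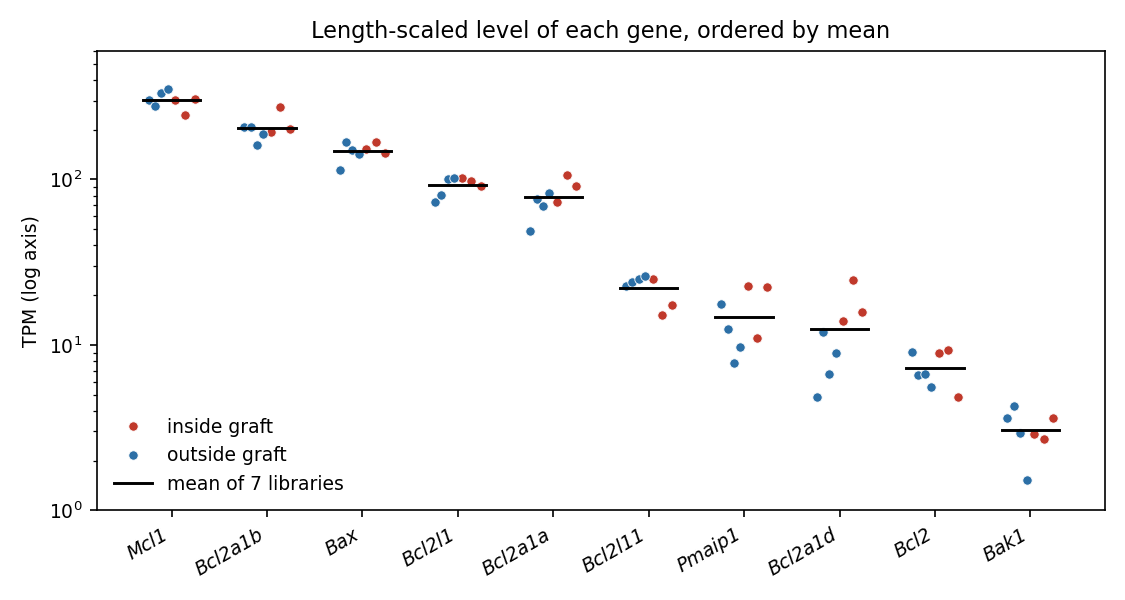
Level of each gene in TPM (log axis) in every library, inside graft in red and outside graft in blue, with a line at the mean of the 7 libraries, ordered by that mean. Mcl1 has the highest mean, 303 TPM, with reads shared among the Bcl2a1 copies not counted, and Bak1 the lowest, 3.08 TPM. Red and blue points mix in all genes but Bcl2a1d.

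The other genes of the pathway were counted from 4 lists with 60 genes, of which 54 were tested. In both edgeR and voomWithQualityWeights 0 of them had an adjusted P below 0.05, and 1 in edgeR and 2 in voomWithQualityWeights had an unadjusted P below 0.05, where 9.55% and 12.2% of all genes did. For 7 of the 54 the groups did not overlap, against 10.7% of all genes. These lists hold Birc2 and Birc3 but not Birc5, which was counted with the proliferation genes. Birc5 had 11.6 ± 4.57 CPM inside and 2.27 ± 1.88 CPM outside, with an adjusted P of 0.174 in edgeR and 0.0482 in voomWithQualityWeights. In that test 2 of the 8 proliferation genes had an adjusted P below 0.05. All 8 were higher in every inside library, against 5.65% of all genes. Of the 16 other Bcl2 relatives, 12 were tested, 9 with a fold change above 1 and 3 below, with a median log2 fold change of 0.26. Bcl2l10, a survival relative, was at 0 in all libraries, and the effector relative Bok was at 0 in all inside libraries and had a mean of 0.030 CPM outside. Bcl2l12 had 9.46 ± 1.78 CPM inside and 13.6 ± 0.992 CPM outside, with a log2 fold change of -0.52 and an adjusted P of 0.512 in edgeR, and all its inside libraries lay below the outside ones. Bid, whose protein links death receptors to mitochondria and which had the highest level of these relatives (81.9 TPM), had 83.4 ± 17.0 and 103 ± 10.9 CPM (adjusted P = 0.590), and Bnip3l, a gene of mitophagy, had 81.0 ± 4.26 and 76.7 ± 7.21 CPM. Bcl2a1c, a further A1 copy, had 1.55 ± 0.179 CPM inside and 0.737 ± 0.138 CPM outside from 14 to 39 counts per library, with a log2 fold change of 1.07 and an adjusted P of 0.623, and its groups did not overlap.

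Downstream of mitochondria, all 21 genes of the apoptosome, the caspases and their inhibitors were tested, 12 with a fold change above 1 and 9 below, and the median log2 fold change was 0.033. The initiator Casp9 had 44.9 ± 5.50 CPM inside and 53.9 ± 4.66 CPM outside (log2 fold change -0.26, adjusted P = 0.629 in edgeR) and the adaptor Fadd 8.46 ± 0.764 and 11.8 ± 1.64 CPM (adjusted P = 0.586). Casp8, the initiator of the death-receptor route and the highest of the list at 227 TPM, had 217 ± 29.8 and 212 ± 26.02 CPM, and Vdac2, a mitochondrial channel that holds BAK1, had 217 ± 9.59 and 239 ± 24.1 CPM. None of these differences was larger than the spread between libraries by the adjusted test.

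In a list of 13 genes for transcription factors and ubiquitin enzymes linked to the family, which also holds Mdm2 and the p53 target Cdkn1a, 4 had a fold change above 1 and 9 below (median log2 fold change -0.047). The p53 gene Trp53 had 97.2 ± 6.22 CPM inside and 111 ± 7.24 CPM outside (adjusted P = 0.655 in edgeR), the cell-cycle inhibitor Cdkn1a 16.5 ± 6.71 and 11.002 ± 2.09 CPM (adjusted P = 0.586) and Nfkb1, a subunit of NF-kappaB, 159 ± 6.68 and 183 ± 21.9 CPM (adjusted P = 0.665). Atf4 and Rela, the highest of the list, had 153 ± 11.5 and 158 ± 13.4 CPM and 173 ± 8.14 and 190 ± 12.9 CPM. Of 10 other p53 targets beyond the Bcl2 family 8 were tested, 6 with a fold change above 1 and 2 below (median log2 fold change 0.22). Perp had 4.39 ± 0.881 and 2.82 ± 0.716 CPM (adjusted P = 0.702), Aen 13.6 ± 0.672 and 10.8 ± 1.55 CPM (adjusted P = 0.716) and Sesn2 14.1 ± 1.46 and 17.3 ± 1.71 CPM (adjusted P = 0.725), while the highest, Ccng1 and Ei24, had 48.8 ± 0.0912 and 45.2 ± 16.9 CPM and 59.8 ± 10.0 and 59.0 ± 8.55 CPM.

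**Figure D5:**
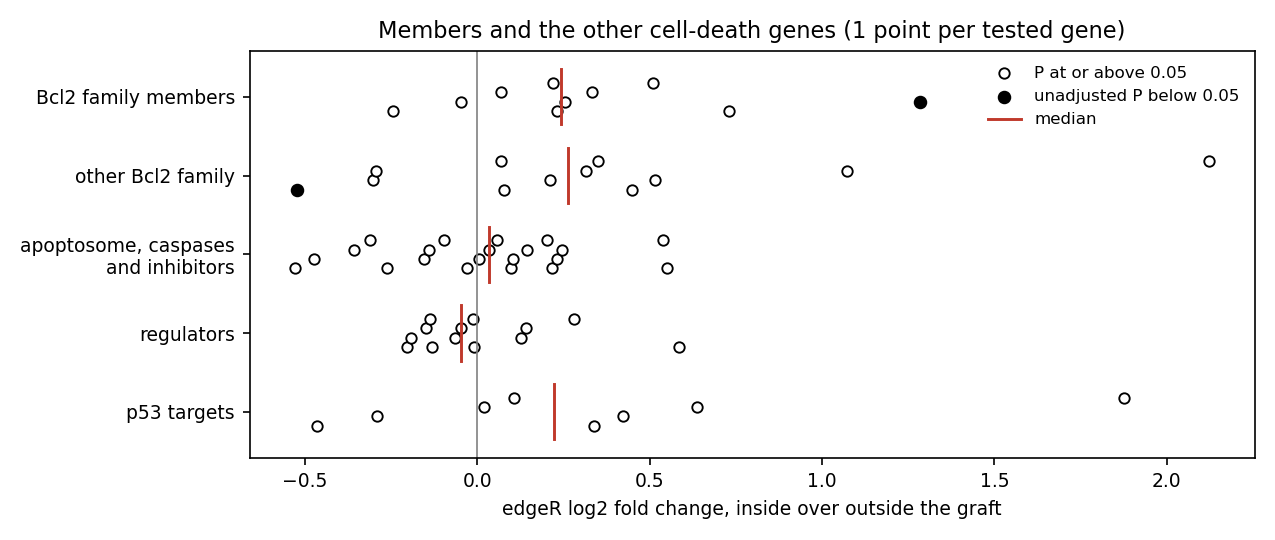
Log2 fold change, inside relative to outside, in edgeR for each tested gene of the family and of 4 further lists, filled where the unadjusted P was below 0.05, with a red line at each median. The medians are 0.24, 0.26, 0.033, -0.047 and 0.22 from top to bottom, and the filled points are Bcl2a1d and Bcl2l12.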

How the data were processed

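Microglial RNA was amplified with the SMARTer Ultra Low Input kit, tagmented with Nextera XT and sequenced as single reads. Per the file headers and methods, the authors aligned reads with STAR 2.7.2a to GRCm38.p6 and deposited a table of raw counts by gene name, made with featureCounts 1.6.2 on GENCODE M21 exons, without normalization, strand or multi-mapping reads. Totals ran from 18644807 to 25882122 counts per library; amplified reads with no identifiers are not separate molecules. Groups and replicate numbers came from the sample titles.

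Genes were filtered with filterByExpr and scaled with TMM in R 4.3.3. The inside and outside groups were compared with edgeR 4.0.16 (glmQLFit and glmQLFTest, legacy=TRUE), limma 3.58.1 (voomWithQualityWeights) and DESeq2 1.42.0, with Benjamini-Hochberg adjustment over all genes tested. Standard errors and intervals of edgeR are those implied by F. CPM used effective library sizes, TPM the deposited exon length. Libraries within a group differed beyond counting noise (smallest ratio of chi-square to its degrees of freedom, 16.6).

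The members and lists were chosen with earlier results of these data known. Within each list the 3 genes with the smallest edgeR P and the 2 with the highest TPM were named, and Bcl2l10 and Bok after their values were seen. Some results that this rule names are not reported here. The edgeR and voomWithQualityWeights tests were first tried on simulated data, and DESeq2 was not. Tool versions for alignment and counting are those in the submitters' processing notes.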

Additional observations from a re-analysis of the deposited data

How the results depend on the processing

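In edgeR the count of Bcl2 family members past an adjusted P of 0.01 was 0 under every alternative tried, and the count at 0.05 was 0. In DESeq2 and voomWithQualityWeights members were counted with all 7 libraries and no block, and 0 passed 0.01. Over all genes, where edgeR called 0 (1457 at an unadjusted P below 0.05) and voomWithQualityWeights 3, the counts moved to 15 and 75 at an adjusted P below 0.05, to 190 and 41 with no filter on low counts, and to 284 with DESeq2 over all genes with counts in place of edgeR. The causes were not tested. With each library left out they ran from 0 to 1 in edgeR and from 0 to 33 in voomWithQualityWeights (33 without inside graft 2, 0 without outside graft 1 or 4). With the replicate number as a block and outside graft 4 left out, edgeR called 5 genes, of which none was a member. There voomWithQualityWeights called 77 genes, and members among these were not counted. Deviations of same-numbered libraries correlated at -0.043, 0.090 and 0.067, all under 0.1, and no label says that a number marks a shared mouse, so the numbers were not taken as pairs. Leaving out outside graft 4 alone gave 0 calls in each tool. The summed A1 copies ran from 0.19 to 0.55 with each library left out. The direction reversed for Bak1, to -0.15 with the block and over a range of -0.16 to 0.29 with each library left out, and for Mcl1, over a range of -0.089 to 0.0048. The other 8 genes kept their direction under all alternatives. Depth limits Bak1 (28 to 76 counts) and Bcl2a1d (26 to 176 counts) most.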
